A study of Mus musculus with 2 samples.

Results

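Integrins and the proteins that tie them to the matrix and to actin were followed in mouse extraembryonic endoderm stem (XEN) cells, a stem cell type derived from the primitive endoderm of the blastocyst. The set holds every row of the all-gene table whose symbol begins with Itga or Itgb and a digit, together with Itgav, Dag1, Cd44, Cd151 and 11 named cytoplasmic adhesion genes. It has 41 rows of 26127 in all, with 40 symbols, because Itgb1bp1 stands on separate rows. They comprise 13 integrin alpha chains, 9 integrin beta chains, 11 cytoplasmic adhesion proteins, 3 other surface proteins and 5 rows named for binding an integrin. PS10 cells, a female line of the ICR strain, received by lipid transfection either a locked nucleic acid (LNA, a chemically stabilised antisense oligonucleotide) against the noncoding RNA Gata6-AS or a control LNA, and total RNA was sequenced. Both reagents appear as siRNA in the sample titles and as locked nucleic acid in the protocol for treatment, whose term is kept here. There was 1 library per group from 1 cell line, so no test between conditions was possible, and every difference compares these 2 libraries.

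Integrins are receptors made of an alpha and a beta chain that bind matrix proteins outside the cell. Inside the cell, talin and kindlin bind the beta tail and switch the receptor on, vinculin and the complex of ILK, PINCH and parvin connect it to actin, and paxillin and focal adhesion kinase signal from it. The parietal endoderm of the embryo, a descendant of the primitive endoderm, lays down a thick basement membrane of laminin, collagen IV and nidogen, to which laminin-binding integrins and dystroglycan attach. The alpha chain largely sets which ligand is bound: alpha3, alpha6 and alpha7 chains bind laminin, while alpha5 and alphav chains bind proteins with an RGD motif such as fibronectin and vitronectin.

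The chains of 2 RGD receptors carry much of what follows, and the 250 bases before the start of each of their genes are shown for reference. Itga5 and Itgb1 encode the fibronectin receptor, and Itgav and Itgb5 encode a vitronectin receptor. The sequences come from RefSeq on the GRCm38.p6 build, in which 29 of the 40 symbols had a promoter entry, and are written on the strand of the gene. They lie at chr15:103366792-103367041 on the minus strand, and at chr8:128685404-128685653, chr2:83724147-83724396 and chr16:33829415-33829664 on the plus strand. Capitals mark the GC box, GGGCGG on either strand.
Itga5: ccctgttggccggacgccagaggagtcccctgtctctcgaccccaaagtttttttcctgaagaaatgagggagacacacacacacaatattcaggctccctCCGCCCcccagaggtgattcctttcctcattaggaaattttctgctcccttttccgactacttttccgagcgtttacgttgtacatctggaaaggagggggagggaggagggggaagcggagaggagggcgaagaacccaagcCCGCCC
Itgb1: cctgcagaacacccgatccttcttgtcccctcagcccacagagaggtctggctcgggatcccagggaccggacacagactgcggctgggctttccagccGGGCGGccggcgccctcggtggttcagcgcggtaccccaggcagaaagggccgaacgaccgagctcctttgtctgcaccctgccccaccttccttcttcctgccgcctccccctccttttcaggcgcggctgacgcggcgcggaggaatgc
Itgav: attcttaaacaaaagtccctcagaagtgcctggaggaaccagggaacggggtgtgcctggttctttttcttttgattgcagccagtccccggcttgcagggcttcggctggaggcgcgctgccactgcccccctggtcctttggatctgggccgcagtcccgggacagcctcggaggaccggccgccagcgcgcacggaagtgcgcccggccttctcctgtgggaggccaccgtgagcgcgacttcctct
Itgb5: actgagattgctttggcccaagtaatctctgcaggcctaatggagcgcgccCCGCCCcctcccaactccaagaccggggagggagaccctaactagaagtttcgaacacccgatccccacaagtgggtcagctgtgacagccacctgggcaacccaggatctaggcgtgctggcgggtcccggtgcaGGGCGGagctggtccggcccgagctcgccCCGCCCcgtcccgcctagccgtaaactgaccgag
The GC box occurred 2 times before Itga5, 1 time before Itgb1, 3 times before Itgb5 and was not found before Itgav. It was found in 32.7% of 32851 promoter windows of the same length. GATA letters (AGATAA or TGATAA or AGATAG or TGATAG), AP-1 letters (TGACTCA or TGAGTCA) and the E-box CACGTG were searched on both strands as well. None of these was found in the 4 windows, while 26.5%, 4.46% and 6.02% of all windows held them. The window of Itga5 had a GC content of 55.6% and 11 CpG dinucleotides, against 64.4% to 68.0% and 18 to 21 for the other 3 and medians of 52.4% and 6 over all windows. These counts describe the letters only.

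The integrin repertoire of both libraries was narrow. Of the 41 rows, 23 had a mean of at least 1 RPKM (reads scaled to a kilobase of gene length and to 1000000 reads in the library), the level needed to enter the comparison, and 18 did not. The measured receptors were 5 alpha chains (Itga3, Itga5, Itga6, Itga7 and Itgav) and 2 beta chains (Itgb1 and Itgb5). Itgb1, the common partner of most alpha chains, stood at 153 RPKM in the control library, above 97.9% of the 10869 genes tested, followed by Itga5 at 77.5 RPKM and Cd151 at 74.2 RPKM. At the depth of these libraries (1.04e+08 reads in the control and 1.23e+08 in the Gata6-AS LNA library), at least 296 reads stood behind each value of a measured member, and at least 19390 behind either value of Itgb1. Intervals given below are exact (Clopper-Pearson) 95% intervals from the least number of reads. They hold counting error alone, PCR copies not being independent molecules, and say nothing of the variation between cultures.

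**Figure D1:**
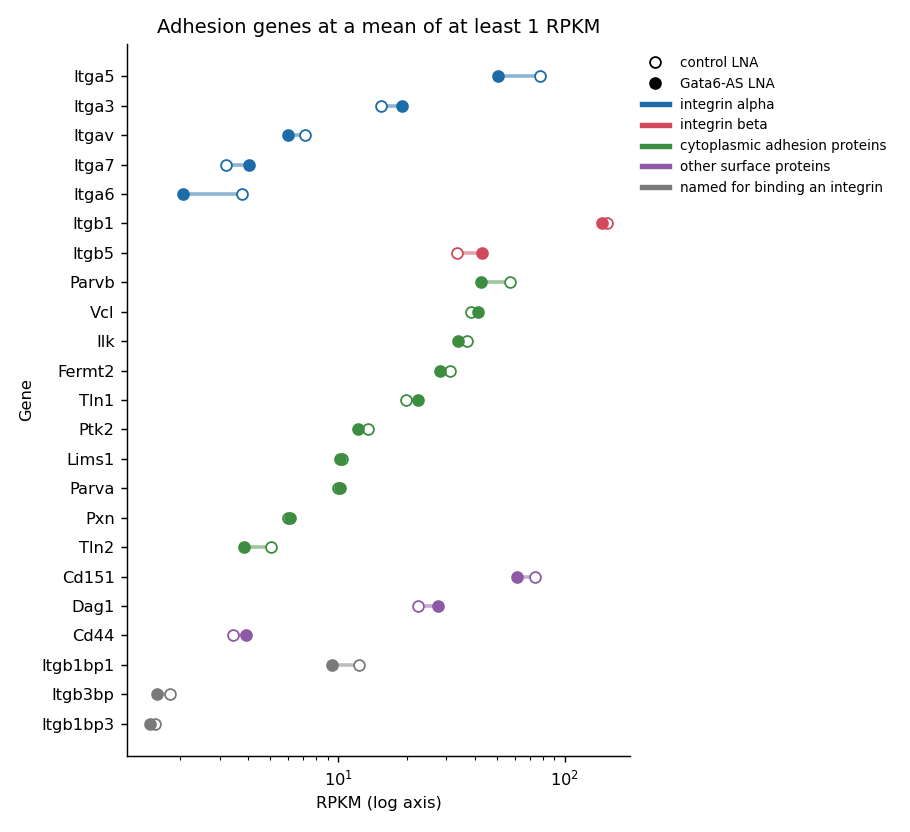
RPKM on a log axis of the 23 measured adhesion genes (mean of 1 RPKM or more), with an open circle for the control library and a filled circle for the Gata6-AS LNA library, coloured by role. The widest gaps belong to Itga6 and Itga5, where the control circle lies to the right, while Itgb1 stands at 153 and 145 RPKM.

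The alpha chains differed in both directions. Itga5, the alpha chain of the fibronectin receptor, stood at 77.5 RPKM with the control LNA and 50.9 RPKM with the Gata6-AS LNA. It was thus the most abundant alpha chain in both libraries and lower in the second, at 65.6% of control (64.1% to 67.1%) and a difference of log2(RPKM + 1) of -0.60. Its position in mm9 is chromosome 15, 103174720 to 103197194, minus strand. Itga6, a laminin receptor chain that pairs with Itgb1 or Itgb4, stood at 3.77 RPKM with the control LNA and 2.06 RPKM with the Gata6-AS LNA. Its level was 54.6% of control (51.8% to 57.6%), the lowest share among the measured members, with a difference of -0.64. Its position in mm9 is chromosome 2, 71583673 to 71696473, plus strand. Itgav, the alpha chain of the vitronectin receptors, stood at 7.14 and 6.005 RPKM, or 84.1% of control (81.5% to 86.8%).

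The other laminin-binding alpha chains were higher in the Gata6-AS LNA library. Itga3, the chain of the alpha3beta1 laminin receptor of epithelia, stood at 15.4 RPKM with the control LNA and 19.2 RPKM with the Gata6-AS LNA. That is 125% of control (121% to 128%) and a difference of 0.30. Itga7, best known from muscle, stood at 3.17 and 4.02 RPKM, or 127% of control (115% to 140%). Within the laminin-binding chains the ratio of Itga3 to Itga6 was thus 4.08 in the control and 9.32 in the Gata6-AS LNA library. Over the 3 laminin-binding chains the summed level was 22.3 RPKM with the control LNA and 25.2 RPKM with the Gata6-AS LNA. Over the 4 RGD-binding chains it was 85.2 and 57.4 RPKM, of which Itga5 alone made up 77.5 and 50.9 RPKM.

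The measured beta chains did not follow Itga5. Itgb1 stood at 153 RPKM with the control LNA and 145 RPKM with the Gata6-AS LNA, or 94.8% of control (93.0% to 96.7%), a difference of -0.08. Itgb5, which pairs with Itgav, stood at 33.5 and 43.0 RPKM. It had the highest level relative to control of all measured members, 128% (125% to 131%), with a difference of 0.35; the interval overlaps those of Itga7, Itga3 and Dag1. The partners Itgav and Itgb5 therefore stood on opposite sides of the control, and the ratio of Itgb5 to Itgav was 4.70 in the control and 7.16 in the Gata6-AS LNA library. The ratio of Itga5 to its partner Itgb1 was 0.506 in the control and 0.350 in the Gata6-AS LNA library.

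Summed over all chains, the alpha side was smaller in the Gata6-AS LNA library and the beta side was not. The 13 alpha chains summed to 108 ± 0.642 RPKM (counting standard error from the least reads) in the control and 83.4 ± 0.499 RPKM in the Gata6-AS LNA library, or 76.9% of control. The 9 beta chains summed to 188 ± 1.15 and 190 ± 1.04 RPKM, or 101% of control. The alpha sum was 0.577 of the beta sum in the control and 0.439 of it in the Gata6-AS LNA library. Within the alpha sum, Itga5 made up 71.5% ± 0.219 in the control and 61.0% ± 0.266 in the Gata6-AS LNA library. The share of Itga3 was 14.2% ± 0.152 and 23.0% ± 0.200, and that of Itgav 6.59% and 7.20%. Within the beta sum, Itgb1 made up 81.7% and 76.6%, and Itgb5 17.9% and 22.6%. RPKM is scaled to length, so such sums compare transcript levels between chains, not protein or receptors at the surface.

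**Figure D2:**
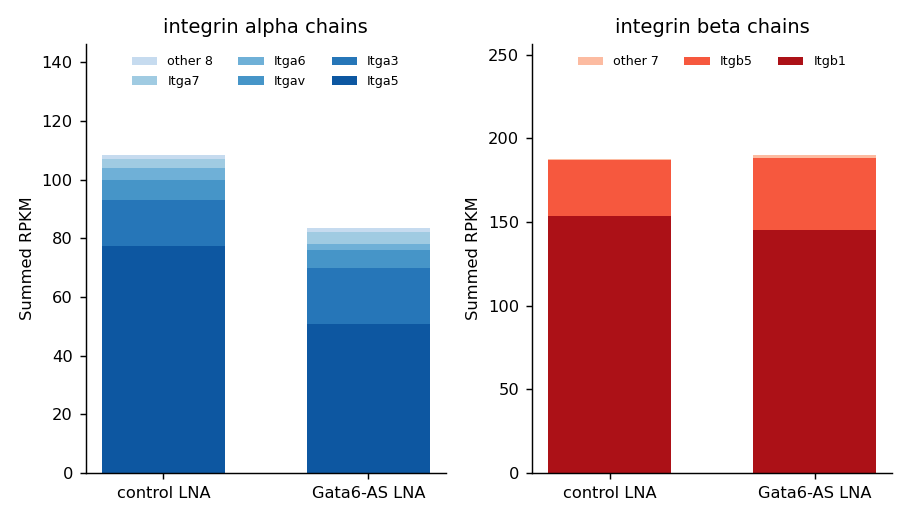
Summed RPKM of the 13 integrin alpha chains (left) and 9 integrin beta chains (right) in each library, stacked by chain, with chains under a mean of 1 RPKM drawn together as "other". The alpha stack is 108 RPKM with the control LNA and 83.4 RPKM with the Gata6-AS LNA, and the beta stacks are 188 and 190 RPKM. Itga5 accounts for the whole gap between the alpha stacks, and the other alpha chains together are slightly higher with the Gata6-AS LNA.

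Among proteins that bind the beta tail, the talins differed in opposite directions. Tln1, the talin of most tissues, stood at 19.97 RPKM with the control LNA and 22.5 RPKM with the Gata6-AS LNA, or 113% of control (110% to 116%). Tln2 stood at 5.05 and 3.82 RPKM, or 75.7% (73.1% to 78.4%). Tln2 thus made up 20.2% of the summed talin level in the control and 14.5% in the Gata6-AS LNA library, and the talin sum was 105% of control. The kindlin gene Fermt2 stood at 31.1 and 28.0 RPKM, or 90.1% (87.9% to 92.3%), while the epithelial kindlin gene Fermt1 was at 0.172 and 0.168 RPKM.

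In the complex of ILK, PINCH and parvin, Parvb was lower and the other subunits stood nearer to the control. Parvb, beta-parvin, stood at 57.4 RPKM with the control LNA and 42.7 RPKM with the Gata6-AS LNA. It was the most abundant cytoplasmic adhesion gene in both libraries and lower in the second, at 74.5% of control (72.9% to 76.1%) and a difference of -0.42. Parva, alpha-parvin, stood at 10.003 and 10.2 RPKM, or 102% (99.3% to 105%). The parvin sum was 67.4 RPKM with the control LNA and 52.9 RPKM with the Gata6-AS LNA, and the share of Parva in it was 14.8% and 19.3%. Ilk, the pseudokinase at the centre of the complex, stood at 36.9 and 33.9 RPKM, or 91.9% (89.4% to 94.4%). The PINCH gene Lims1 stood at 10.3 and 10.1 RPKM, or 97.9% (91.9% to 104%).

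The actin link and the signalling proteins stood close to the control. Vcl, vinculin, which binds talin and actin under tension, stood at 38.5 RPKM with the control LNA and 41.4 RPKM with the Gata6-AS LNA, or 107% (105% to 110%). Pxn, the scaffold paxillin, stood at 5.99 and 6.08 RPKM, or 101% (96.4% to 107%). Ptk2, focal adhesion kinase, stood at 13.5 and 12.2 RPKM, or 90.7% (87.8% to 93.7%). For Pxn, Parva, Lims1 and Itgb1bp3 the interval included 100% of control. Of the 23 measured members, 12 had an interval wholly below 100%, where 31.1% of all genes tested did, and 7 had one wholly above it, where 44.5% did. Setting the median of all genes, or the summed RPKM, equal between the libraries put Pxn and Parva on the other side of 0, as their differences were 0.02 each.

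The other surface proteins went both ways. Dag1, dystroglycan, a receptor for laminin and perlecan, stood at 22.4 RPKM with the control LNA and 27.5 RPKM with the Gata6-AS LNA, or 123% (119% to 126%). Cd151, a tetraspanin that associates with laminin-binding integrins, stood at 74.2 and 61.8 RPKM, or 83.2% (80.6% to 85.9%). Cd44, the hyaluronan receptor, stood at 3.43 and 3.92 RPKM, or 114% (108% to 121%). Dystroglycan was thus higher, as were the laminin-binding chains Itga3 and Itga7, but not Itga6. Cd151 was lower, as was Itga6, and so lay opposite to Itga3 and Itga7.

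Of the genes named for binding an integrin, Itgb1bp1 encodes ICAP1, a negative regulator that binds the beta1 tail. Its main row, on chromosome 12, stood at 12.3 RPKM with the control LNA and 9.34 RPKM with the Gata6-AS LNA, or 75.7% (72.2% to 79.4%). A second row of this symbol elsewhere on the chromosome was at 0.259 and 0.272 RPKM. Reads may be shared between these rows, so the value is uncertain. Itgb3bp, a centromere protein despite its name, stood at 1.80 and 1.57 RPKM, or 87.5% (79.6% to 96.1%). Itgb1bp3, a nicotinamide riboside kinase, stood at 1.55 and 1.47 RPKM, or 94.8% (80.8% to 111%). Itgb1bp1 overlaps the expressed gene Asap2 on the opposite strand. Such overlap was also present for Itgb3bp (Efcab7 and Pgm2), Cd151 (Gm10575), Vcl (Ap3m1), Ilk (Rrp8 and Taf10) and Tln1 (Creb3). The use of strand in counting is not stated in the labels or files used here, so reads of these partners cannot be told apart.

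**Figure D3:**
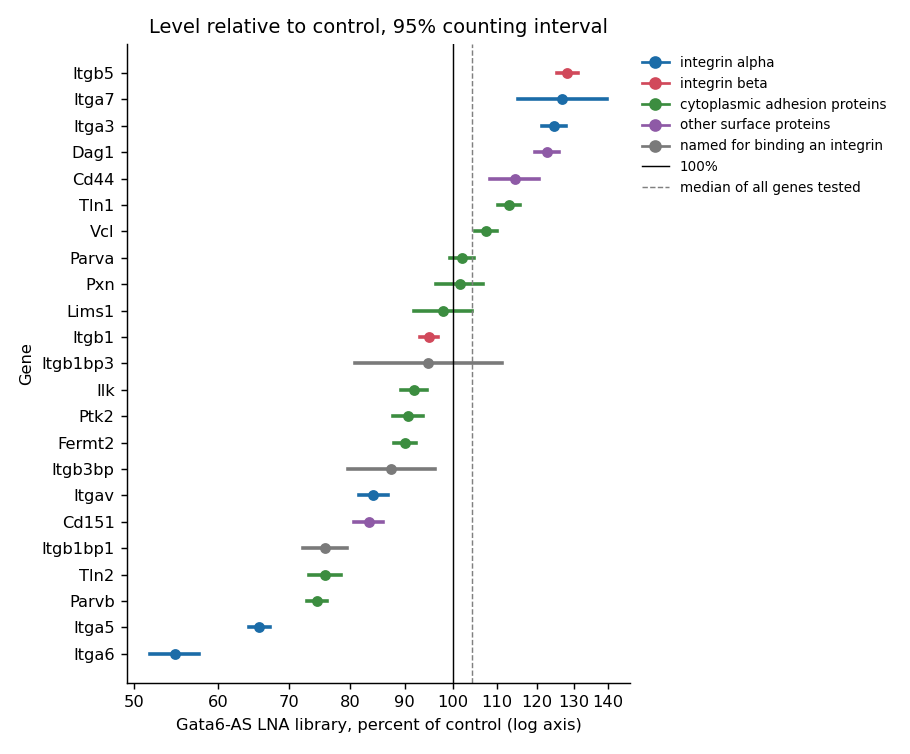
Level in the Gata6-AS LNA library as a percent of control, on a log axis, for the 23 measured members, with bars for the exact 95% counting interval. Itga6 (54.6%) and Itga5 (65.6%) lie lowest and Itgb5 (128%) highest. The dashed line is the median of all 10869 genes tested, 104%.

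Set against all genes, the members were mostly close to the control. A member passed the size rule at a 2-fold difference of RPKM + 1, a scale that shrinks differences of low genes, and 0 of 23 did, where 0.782% of all genes tested passed (0.451% lower and 0.331% higher). At 1.5-fold, 2 members passed, Itga5 and Itga6, both lower, where 5.37% of all genes passed (1.95% lower and 3.42% higher). Ranked by difference among the genes tested, Itga5 was at percentile 1.87, Itga6 at 1.56 and Itgb5, at the other end, at 87.6. The median difference of the 23 members was -0.08, beside 0.05 over all genes tested, and 14 of them lay below 0 (60.9%), where 42.0% of all genes did and 58.0% lay above 0. The median was -0.08 over the 7 integrin subunits and -0.07 over the 10 measured cytoplasmic adhesion proteins. The integrin subunits spread from -0.64 to 0.35 and the cytoplasmic proteins from -0.42 to 0.17. With all members above 0 RPKM counted, the median of the then 20 integrin subunits was 0.01, on the other side of 0. The median over all genes in that setting was also 0.01.

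**Figure D4:**
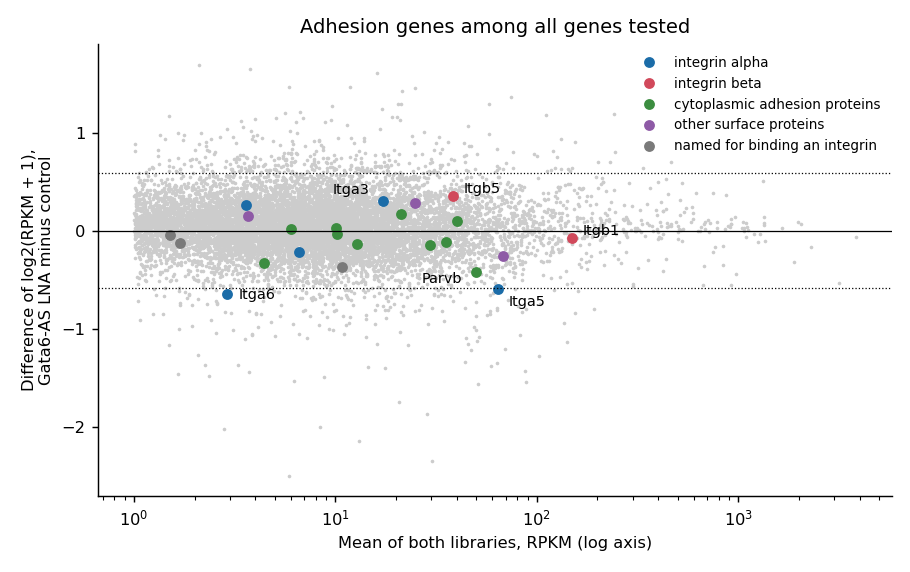
Difference of log2(RPKM + 1), Gata6-AS LNA minus control, against the mean RPKM of both libraries on a log axis, with the measured members coloured by role over all other genes tested in grey. The dotted lines mark 1.5-fold, past which Itga5 and Itga6 lie, both below.

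Of the measured members, 4 were listed in the authors' deposited table of differing genes, all as lower (17.4%), where 11.9% of the genes tested were listed, 5.71% as lower and 6.23% as higher. In the authors' deposited table the log2 difference was -0.94 for Itga6 (p = 0.00164), -0.54 for Itga5 (p = 0.0638), -0.45 for Itgb1bp1 (p = 0.0632) and -0.43 for Tln2 (p = 0.0609). What test gave these p-values is not stated in the labels or files used here, and each group had 1 library. The table rests on the same libraries and is no independent check of the RPKM values.

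The remaining 18 rows were below a mean of 1 RPKM: 8 alpha chains, 7 beta chains, Fermt1, Itgb1bp2 and the second row of Itgb1bp1. The low alpha chains were the collagen-binding chains Itga1, Itga2, Itga10 and Itga11, the chains Itga4 and Itga9, and the RGD-binding chains Itga8 and Itga2b, at up to 0.416 RPKM in either library. Itgb8 and Itgb2l were listed at 0 in both libraries. Over a kilobase, 0 reads allow up to 0.0290 RPKM with the control LNA and 0.0244 RPKM with the Gata6-AS LNA. Itga2 rested on a minimum of 1 read in each library. Of the 16 rows above 0, 6 had a counting interval wholly above 100% of control, 2 wholly below it and 8 across it. Of the 6384 genes under the filter for which an interval could be computed, 14.4% had one wholly above and 7.61% wholly below.

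Several low beta chains were higher in the Gata6-AS LNA library. Itgb6, an epithelial partner of Itgav, stood at 0.132 RPKM with the control LNA and 0.355 RPKM with the Gata6-AS LNA, or 269% of control (214% to 342%; the values rest on no fewer than 97 and 310 reads). Itgb4, the partner of Itga6 in hemidesmosomes, stood at 0.264 and 0.429 RPKM, or 162% (136% to 194%), and so lay opposite to Itga6. Itgb7, known from lymphocytes, stood at 0.334 and 0.549 RPKM, or 164% (127% to 212%). Among the low alpha chains, Itga9 stood at 0.355 and 0.217 RPKM, or 61.0% (50.7% to 73.3%), and Itga2b at 0.122 and 0.207 RPKM, or 170% (126% to 230%). The authors' deposited table listed Itgb6 (log2 difference 1.30, p = 0.00265) and Itga9 (-0.84, p = 0.0498), where 9.96% of the genes above 0 and under a mean of 1 RPKM were listed.

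Among all genes tested, 42.0% lay below 0 and 5.37% were past 1.5-fold, the shares to set beside the lists that follow. Matrix ligands, a list of 20 genes, had 11 measured members with a median difference of -0.22, 7 below 0 and 4 above. The member past 1.5-fold was the nidogen gene Nid1 (193 against 126 RPKM, control first here and in what follows, -0.62). The chains of laminin-111, Lama1, Lamb1 and Lamc1, summed to 3157 RPKM with the control LNA and 2310 RPKM with the Gata6-AS LNA, or 73.2% of control. Other basement membrane genes went both ways. Nid2, the second nidogen, stood at 505 and 575 RPKM (114% of control, 112% to 116%), the perlecan gene Hspg2 at 72.0 and 79.1 RPKM (110%, 107% to 113%) and the laminin chain Lama5 at 25.1 and 28.0 RPKM (112%, 109% to 114%). The agrin gene Agrn was lower, at 60.2 and 47.4 RPKM (78.7%, 77.1% to 80.4%). The laminin chain Lamb2 stood at 42.3 and 41.7 RPKM (98.7%, 96.8% to 101%). The collagen IV genes Col4a1 (0.0878 and 0.168 RPKM) and Col4a2 (0.531 and 0.619 RPKM) were under the filter in both libraries. These values are far below those of the laminin-111 chains. Whether they reflect transcript levels or the annotation and counting, which are not given, was not tested. A lack of collagen IV in these cells cannot be read from them. Fn1, the fibronectin ligand of the Itga5 receptor, stood at 3.97 and 3.25 RPKM, or 81.9% (78.1% to 86.0%). The vitronectin gene Vtn was listed at 0 in both libraries. On the opposite strand, Lamb1 overlaps the expressed gene Gm11053 and Nid2 overlaps 2700060E02Rik. As the use of strand is not stated, reads of these partners cannot be told apart. The ligand genes other than Nid1 were picked here with their values known.

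Other adaptors and kinases of focal adhesions had 19 of 24 members measured, a median difference of 0.04, 9 below 0 and 10 above. The member past 1.5-fold was Ptk2b, the Pyk2 kinase related to focal adhesion kinase. It stood at 4.73 RPKM with the control LNA and 9.44 RPKM with the Gata6-AS LNA, or 200% of control (192% to 208%), with a difference of 0.87. The ratio of Ptk2b to Ptk2 was 0.351 in the control and 0.773 in the Gata6-AS LNA library. A list named for actin links of adhesions, whose members need not all bind actin, had 18 of 22 measured and a median of -0.05. Of these, 13 lay below 0 (42.0% of all genes tested did) and 5 above, and 2 were past 1.5-fold (5.37% of all genes were). These were the tensin gene Tns4, at 2.12 and 5.86 RPKM (276% of control, 259% to 296%, a difference of 1.14), and Kank2, whose product binds talin, at 13.6 and 21.0 RPKM (155%, 150% to 160%, a difference of 0.60).

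Genes of the dystroglycan complex and of its glycosylation had 13 of 21 measured, with a median difference of 0.01, 6 below 0 and 7 above. Gyltl1b, a glycosyltransferase that makes the laminin-binding glycan of dystroglycan, was past 1.5-fold at 2.11 and 4.16 RPKM, or 197% of control (184% to 211%), a difference of 0.73. Its paralogue Large stood at 2.39 and 2.33 RPKM, or 97.5% (91.7% to 104%). Syndecan, Ddr and Lutheran receptors had 6 of 9 measured and a median of 0.01. The extremes were the collagen receptor Ddr1 (154% of control, a difference of 0.43) and the syndecan Sdc4 (84.0%, -0.25). Over all 7 lists of other adhesion genes, 89 genes were measured, of which 4 were at least 1.5-fold higher and 1 lower, where 3.42% and 1.95% of all genes tested were. The median over the lists was -0.03.

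**Figure D5:**
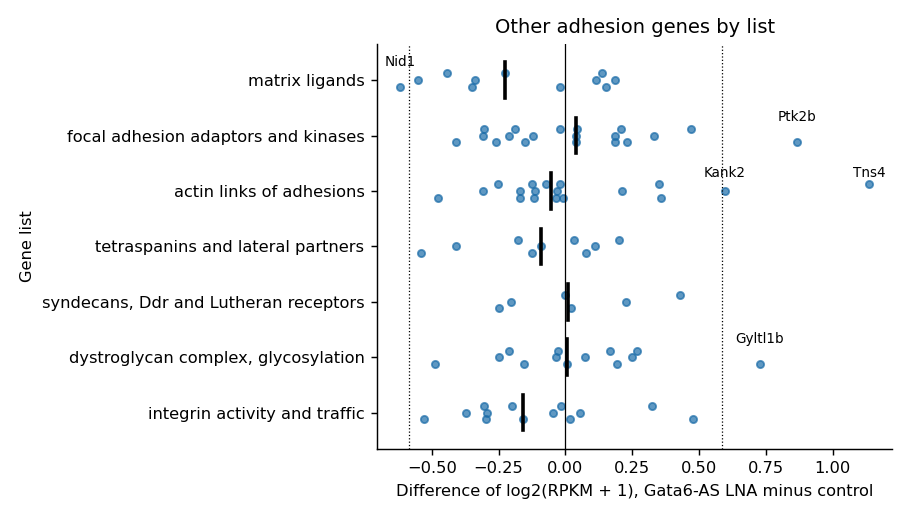
Difference of log2(RPKM + 1), Gata6-AS LNA minus control, for the measured genes of 7 lists of other adhesion genes, 1 point a gene, with a black bar at the median of each list and dotted lines at 1.5-fold. Tns4 (1.14), Ptk2b (0.87), Gyltl1b (0.73) and Kank2 (0.60) lie past the right line and Nid1 (-0.62) past the left.

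The labelled cell type was checked against markers. All 9 primitive endoderm markers were above a mean of 1 RPKM, with a summed level of 804 RPKM with the control LNA and 559 RPKM with the Gata6-AS LNA. Gata4 (357 and 246 RPKM) and Sox7 (145 and 59.4 RPKM) carried most of that gap, while Foxa2 (35.1 and 35.9 RPKM), Dab2 (31.0 and 43.6 RPKM) and Hnf4a (3.41 and 4.43 RPKM) were higher with the Gata6-AS LNA. The 8 fibroblast markers summed to at most 0.0150 RPKM with 5 at 0 in both libraries, among them Col3a1, Thy1 and Dcn, the 5 blood markers to at most 0.286 RPKM with Ptprc and Cd53 at 0, and the 5 trophoblast markers to at most 1.63 RPKM with Hand1 at 0. The 5 embryonic stem cell markers summed to 4.81 and 5.35 RPKM, with Esrrb at 0. Nearly all of that sum was Nanog, the 1 of them above a mean of 1 RPKM. The 5 endothelial markers summed to 26.5 and 18.1 RPKM, mainly Tek, with Emcn at 0. The part of these endoderm marker values in the integrin values was not tested, and fewer cells of a type cannot be told from less RNA per cell in bulk samples. Gata6-AS itself, listed as 1010001N08Rik, was at 57.8% of control and Gata6 at 68.0%. Their annotated ends overlap on opposite strands, so the first value may hold reads of the second.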

How the data were processed

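Total RNA of 2 libraries, 1 per group, was analysed. The authors' deposited RPKM values, per the file headers, cover 26127 genes; the submitters' processing notes name TopHat and mm9. Not given in the sources used here are the counting tool, annotation, strand use and treatment of duplicate reads. The authors also deposited, for 2099 genes with p-value up to 0.0750, log2 values and their log2 difference; the tables were joined by coordinates.

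The measure was the difference of log2(RPKM + 1) for genes whose mean reached 1 RPKM. Reads were recovered from the smallest step of RPKM times length in genes spanning under 3000 bp (839 control and 894 Gata6-AS LNA genes). The least whole reads giving both values at 1 length up to 30000 bp (relative tolerance 1e-06 plus 0.0002 reads) gave exact 95% intervals; a value of 0 was bounded at 3 reads. Both steps were tested on simulated data. All members at 1 RPKM or more are named; of other lists, those past 1.5-fold or else the extremes. Members and lists were chosen with earlier results of these data known. Genes named outside this rule (Lama1, Lamb1, Lamc1, Lama5, Lamb2, Nid2, Hspg2, Agrn, Col4a1, Col4a2, Fn1, Vtn, Large, the endoderm markers with values, and the low integrins with values) were chosen after their values were seen. Of 124 other list entries 124 matched, 1 of them (Tns2) through a RefSeq synonym. Alternatives were other pseudocounts, scalings and filters. Python 3.11.15, numpy 2.4.6, pandas 2.3.3, scipy 1.17.1 and matplotlib 3.10.9 were used.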

Additional observations from a re-analysis of the deposited data

How the results depend on the processing

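No paired analysis was possible because each group has 1 library, and for the same reason no library could be left out. No member passed 2-fold under any of the 7 alternatives, but not all of them could have added one. A mean of at least 5 RPKM, or leaving out the genes named for binding an integrin, only removes members. Without a filter the pseudocount of 1 RPKM stayed, and the low rows, at up to 0.549 RPKM, could not reach 2-fold. By RPKM alone, the low gene Itgb6 was at 269% of control. Itga5 and Itga6 passed 1.5-fold under each alternative except a mean of at least 5 RPKM, which leaves out Itga6 and gave 1. In the authors' deposited table the log2 difference of Itga5 was -0.54, short of 1.5-fold. The median difference of all measured members was -0.12 with the median of all genes set to 0, -0.10 with summed RPKM set equal, -0.0041 without a filter and -0.052 without the genes named for binding an integrin. For integrin subunits it was -0.12, -0.10 and, without a filter, 0.012, against -0.08. Without a filter the median over all genes was 0.011. For cytoplasmic adhesion proteins it was -0.076 with a pseudocount of 0.1 RPKM and -0.075 with 0.5 RPKM, -0.12 and -0.10 with these scalings, -0.028 without a filter and -0.028 with a mean of at least 5 RPKM. Of single members, Pxn and Parva changed sign, under both scalings. Itga6 ranged from -0.64 to -0.84 over these settings. Itga6 lay further from 0 the smaller the pseudocount, at -0.64 with 1 RPKM, -0.74 with 0.5 RPKM and -0.84 with 0.1 RPKM. The summed RPKM was set equal by scaling each library to 1000000, with the pseudocount kept at 1. The pseudocount then weighs less, so this setting changes more than the sums, and Itga6 was at -0.82 in it. The authors' deposited table gives -0.94. Why the authors' value differs was not tested. Depth limits the 18 low rows, of which Itga2 had at least 1 read per library.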

Other observations

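Levels of lateral partners of integrins in the membrane ranged widely. Of 12 tetraspanins and partners, 9 were measured, with a median difference of log2(RPKM + 1) of -0.09, 5 below 0 and 4 above, and 0 past 1.5-fold, where 5.37% of all genes were. Slc3a2, the heavy chain of a group of amino acid transporters that also binds integrin beta chains, stood at 167 RPKM with the control LNA and 115 RPKM with the Gata6-AS LNA, or 68.5% of control (67.3% to 69.8%). Bsg, basigin, was at the other end at 392 and 451 RPKM, or 115% (113% to 117%).

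Genes of integrin activity and traffic had 13 of 16 members measured, with a median of -0.16, 9 below 0 and 4 above, and 0 past 1.5-fold. Among all genes tested, 42.0% lay below 0 and 5.37% were past 1.5-fold. Rap1b, a small GTPase that recruits talin to integrins, stood at 73.3 RPKM with the control LNA and 50.5 RPKM with the Gata6-AS LNA, or 68.9% (67.3% to 70.6%). Dab2, a clathrin adaptor that takes up integrin beta1 and is itself an endoderm marker, stood at 31.0 and 43.6 RPKM, or 140% (136% to 145%). In the authors' deposited table the log2 difference was -0.51 for Rap1b (p = 0.0577) and 0.54 for Dab2 (p = 0.0618).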
